A study of Mus musculus with 4 samples.

Results

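Dermal γδ T cells of the IL-17 type were described in CD45+ cells sorted from mouse skin, and 226 of 13124 cells past the quality filters met the definition used here. A cell had to hold at least 2 UMIs (unique molecular identifiers, 1 per captured mRNA molecule) over Cd163l1, Il23r, Blk and Il17a, at least 1 UMI of the CD3 genes Cd3e, Cd3g and Cd3d, and at least 2 UMIs of Rora. Cells with more than 1 UMI of Csf1r, more than 5 of Cd207, any of Foxp3, or more than 2 of Top2a and Mki67 were left out. These limits aim at macrophages, Langerhans cells, regulatory T cells and dividing cells and may not remove all of them. UMIs of macrophage and Langerhans cell genes remained in some gated cells. The 2 control skin libraries held 110 and 88 of these cells, and the 2 skin tumor libraries held 19 and 9, so that 87.6% came from control skin. The definition uses measured values, so the levels of its own 13 genes are given below as a description and were not tested.

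All animals were labelled C57/BL6. Control skin came from uninoculated C57 mice, 2 libraries of 3499 and 3862 barcodes. Skin tumors were grown in C57BL/6 mice by subcutaneous injection of the 2323 cell line, which was established from a tumor graft of a mouse model that carries K14rtTA and tetOCre and lacks P53. The 2 tumor libraries held 5176 and 2258 barcodes, and the tumors were taken about 2 weeks after inoculation. A single line was used for both tumors, young adult mice of both sexes were inoculated, and the sex behind each library and the age of the control mice were not given in the sources used here. Tissue was digested with collagenase IV, live CD45+ cells were sorted, and 3′ droplet libraries were sequenced to 50932896, 52784293, 73904272 and 34893543 UMIs in control skin 1, control skin 2, skin tumor 1 and skin tumor 2. Cells with at least 1000 UMIs and at most 15% mitochondrial UMIs numbered 3114, 3190, 4813 and 2007.

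γδ T cells carry a T cell receptor of a γ and a δ chain in place of the α and β chains. A subset that leaves the thymus already committed to IL-17 settles in the dermis, reads IL-23 and IL-1 from myeloid cells and answers within hours with IL-17A and IL-17F, which act on keratinocytes and draw in neutrophils. The subset depends on the transcription factors Sox13, Maf and PLZF, the last encoded by Zbtb16. The epidermis of the mouse holds another γδ T cell, the dendritic epidermal T cell (DETC), which is a cytotoxic and tissue-repairing cell and not an IL-17 producer. Group 2 innate lymphoid cells (ILC2) share Rora and Il7r with the IL-17 type but lack CD3.

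RORα, the nuclear receptor encoded by Rora, binds DNA at sites with the core AGGTCA, and the starts of Il17a, Il17f, Il23r, Cd163l1 and 4 other genes of the subset with a RefSeq window were searched for these letters. Blk was not searched. The sequences below are the 250 bases before the RefSeq start of 3 genes (GRCm38.p6), shown because 2 of them encode markers of the definition and the third, Il17f, lies beside Il17a and was not used by it. Capitals mark AGGTCA or its reverse complement TGACCT, each line reads 5′ to 3′ on the gene's own strand, and the windows are chr1:20730655-20730904 (plus strand), chr1:20784271-20784520 (minus strand) and chr6:67491856-67492105 (minus strand).
Il17a: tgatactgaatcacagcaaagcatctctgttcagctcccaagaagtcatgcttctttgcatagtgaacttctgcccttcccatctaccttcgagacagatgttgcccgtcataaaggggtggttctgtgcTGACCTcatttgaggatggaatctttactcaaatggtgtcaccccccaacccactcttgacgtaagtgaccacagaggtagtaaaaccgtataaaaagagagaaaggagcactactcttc
Il17f: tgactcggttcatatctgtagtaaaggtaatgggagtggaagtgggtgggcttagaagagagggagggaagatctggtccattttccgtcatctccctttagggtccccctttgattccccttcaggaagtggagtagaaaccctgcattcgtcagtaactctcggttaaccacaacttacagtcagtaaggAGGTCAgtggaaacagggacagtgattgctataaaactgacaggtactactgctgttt
Il23r: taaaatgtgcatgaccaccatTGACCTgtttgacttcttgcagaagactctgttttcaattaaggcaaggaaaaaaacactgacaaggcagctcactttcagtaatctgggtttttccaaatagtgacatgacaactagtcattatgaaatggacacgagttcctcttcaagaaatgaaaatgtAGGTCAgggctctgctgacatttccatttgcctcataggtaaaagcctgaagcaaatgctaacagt

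The match lay 120 to 115 bases before the start in Il17a and 58 to 53 bases before it in Il17f, and Il23r held 2 matches, at 229 to 224 and 66 to 61 bases. The same 6 letters occur on either strand in 4607 of 32851 promoter windows of this length, or 14.0%, so a match describes a sequence and does not show a bound site. The window of Cd163l1 and both of Il1r1 held no match. The window of Sox13 held none either, while 1 of 3 windows of 5830411N06Rik and 1 of 2 of Ccr6 held one. In the GENCODE annotation of the same build, Il17a (chr1:20730905-20734496, plus strand) and Il17f (chr1:20777146-20790617, minus strand) are 42649 bases apart, and the Il17f window falls inside the longest annotated span of that gene. Cd163l1 (chr7:140218267-140231145) and 5830411N06Rik (chr7:140247284-140300736) lie on the plus strand with 16138 bases between them. They encode related scavenger receptors that mark IL-17 type γδ T cells, and reads that fit both genes were not resolved here.

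The gated cells made up 3.53% of cells in control skin 1 (95% Clopper-Pearson interval 2.91 to 4.24) and 2.76% in control skin 2 (2.22 to 3.39). In skin tumor 1 the share was 0.395% (0.238 to 0.616) and in skin tumor 2 it was 0.448% (0.205 to 0.850). Both control skins lay above both tumors, with means of 3.15% ± 0.547 (SD, n = 2) and 0.422% ± 0.0379 (SD, n = 2). Among cells with a CD3 UMI the shares were 5.73% and 5.07% in control skin and 1.75% and 1.53% in the tumors, so the ratio of the means was 7.46 over all cells and 3.3 over CD3 cells. Counting only gated cells with a UMI of Trdc, the δ chain constant gene, the means were 2.27% and 0.102% of all cells. The definition was chosen with this difference known, no test was run on it, and the intervals cover counting error only.

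**Figure D1:**
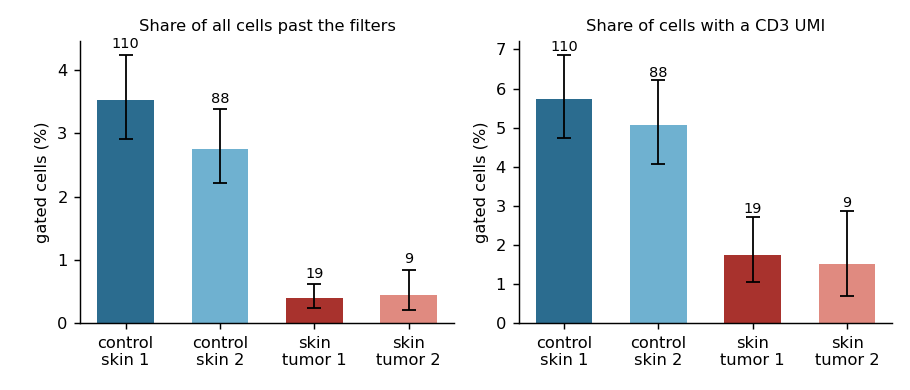
Share of gated cells in each library among all cells past the filters (left) and among cells with a CD3 UMI (right), in percent, with 95% Clopper-Pearson intervals and the number of gated cells above each bar. Both control skins stand above both skin tumors on either scale.

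The marker genes were not spread evenly over the gated cells. Il23r, the specific chain of the IL-23 receptor, was detected in 64.5% and 78.4% of the gated cells of control skin 1 and 2, and Blk, a Src family kinase of B cells and IL-17 type γδ T cells, in 56.4% and 71.6%. Il23r and Blk were found in the same cells: of the 62 and 63 cells with Blk, 60 and 61 also held Il23r. Cd163l1 was detected in 54.5% and 40.9% and Il17a in 37.3% and 44.3% of the gated cells of control skin. The 5 cells richest in Il17a held 49.5% and 44.9% of its UMIs, so the Il17a level of a library rests on few cells. Il17f, which the definition did not use, was detected in 28 and 28 gated cells of control skin, and 23 and 20 of them also held Il17a. Of all Il17a UMIs in cells past the filters, 72.7% and 62.4% lay in the gated cells of control skin, against 31.5% and 34.6% of the Cd163l1 UMIs. Cd163l1 was also found in 53 and 39 cells of the DETC group, in which 72 and 65 cells held a UMI of an IL-17 marker gene. In the tumors Il17a was seen in 10.5% of the gated cells (2 of 19) and in 0 of 9, while Il23r was seen in 89.5% and 100% of them. Blk was seen in 31.6% and 22.2% of the tumor gated cells and Cd163l1 in 21.1% and 11.1%. Of the tumor cells with Blk, 5 of 6 and 2 of 2 held Il23r, while 29.4% and 22.2% of those with Il23r held Blk. In levels, Il17a stood at 560 and 277 CPM (a gene's UMIs scaled to all UMIs of the gated cells of a library) in control skin and at 155 and 0 CPM in the tumors, where the limit that a count of 0 allows was 39.7 CPM in skin tumor 2.

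Many cells lay close to the limits of the definition. A marker sum of exactly 2 was held by 13 and 6 gated cells of control skin and by 4 and 4 of the tumors, and cells that missed only by a marker sum of 1 numbered 26, 10, 4 and 9. In control skin, cells that missed only the Rora requirement nearly all held Trdc, while none of the 4 such cells of skin tumor 1 did. They numbered 15 and 6 with 1 Rora UMI and 31 and 26 with none in control skin. Of those with none, 96.8% and 96.2% held a UMI of Trdc, the constant gene of the δ chain, and in the DETC group described below that share was 94.6% and 97.3%. Without a CD3 UMI, 29 and 39 further control skin cells carried the markers and Rora. Those cells were shallow, with medians of 3825 and 3262 UMIs against 10610 and 10435 in the gated cells.

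Most gated cells held a δ chain transcript in control skin, and most did not in the tumors, where the receptor genes go against the γδ label. Trdc, which the definition did not use, was detected in 77 of 110 gated cells of control skin 1 (70%, 95% Clopper-Pearson interval 60.5 to 78.4) and in 66 of 88 of control skin 2 (75%, 64.6 to 83.6). In skin tumor 1 it was detected in 5 of 19 (26.3%, 9.15 to 51.2) and in skin tumor 2 in 2 of 9 (22.2%, 2.81 to 60). Trac, the constant gene of the α chain, without Trdc was held by 16.4% and 17% of the gated cells of control skin and by 47.4% and 66.7% of those of the tumors. Of the cells with Trac and no Trdc, 1 of 18 and 0 of 15 in control skin and 4 of 9 and 3 of 6 in the tumors also held a UMI of the helper T cell gene Cd4. Free RNA sets a floor for these shares, read here from macrophages, which lack both genes and held no CD3 UMI. That group leaves out droplets with free CD3 RNA, so the floor may be too low. Trdc was detected in 18.5% and 13.7% of control skin macrophages and in 0.0536% and 0.328% of tumor macrophages. Their median depths were 19601.5, 15873, 19693 and 19677.5 UMIs. Trac was detected in 3.26% and 2.84% of macrophages of control skin and in 31 of 1866 and 18 of 610 of those of the tumors. With each cell thinned to 1000 UMIs, Trdc was seen in 44.5% and 48.9% of the gated cells of control skin, 21.1% and 11.1% of those of the tumors, and 2.17% and 1.42% of macrophages of control skin. The tumor cells are therefore called gated cells below and not γδ T cells. The 18 and 15 control skin cells with Trac alone and the 15 and 7 with neither gene stayed in every comparison.

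**Figure D2:**
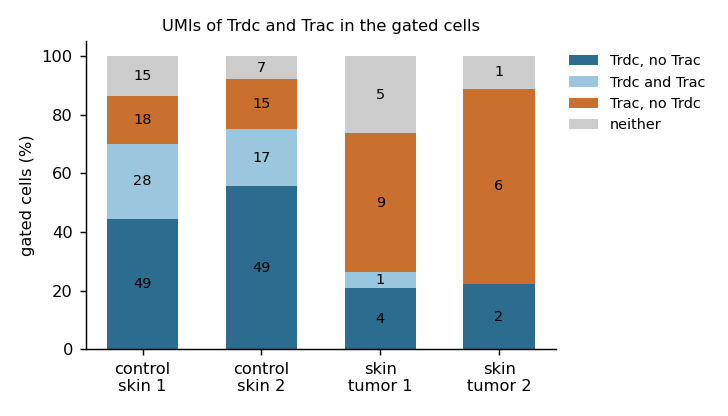
Gated cells of each library split by UMIs of Trdc (δ chain constant gene) and Trac (α chain constant gene), in percent, with cell numbers printed in the bars. Cells with Trdc were most of the gated cells in both control skins, and cells with Trac and no Trdc were the largest class in both tumors.

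Within control skin the gated cells were split by the scavenger receptor gene they held. This split was made after the values were seen and carries no test. Cd163l1 without 5830411N06Rik was held by 52 and 28 cells, 5830411N06Rik without Cd163l1 by 29 and 31 cells, both by 8 and 8 and neither by 21 and 21. A cell without Cd163l1 had to enter the gate through Il23r, Blk or Il17a, so a higher share of those 3 genes in the second class is set by the definition. In turn, 2 UMIs of Cd163l1 alone met the marker sum, and 53 and 39 cells of the DETC group also held that gene. The part of the definition in the other differences between the classes was not tested. Trdv4, a δ chain variable gene that the receptor of DETC uses, was detected in 75.0% and 67.9% of the Cd163l1 cells and in 24.1% and 19.4% of the 5830411N06Rik cells. Trdv4 UMIs were also found in 90.7% and 93.0% of the DETC group and in 48.3% and 43.8% of the CD3-negative ILC2 group, so its UMIs were not restricted to γδ T cells. Il17f ran the other way, at 27.0 and 77.4 CPM in the Cd163l1 cells and 871 and 624 CPM in the 5830411N06Rik cells. It stood at 175 and 19.4 CPM in the cells with neither gene. Most cells with Il17f also held the gate gene Il17a, and the part of the definition in this difference was not tested. The growth factor gene Areg stood at 982 and 1580 CPM in the first class and 496 and 253 CPM in the second. The chemokine receptor gene Ccr6 was detected in 19.2% and 25.0% of the Cd163l1 cells and in 51.7% and 61.3% of the 5830411N06Rik cells, and Il7r, the receptor chain for IL-7, in 59.6% and 71.4% against 100% and 96.8%. Median depths were 10233.5 and 9670.5 UMIs in the first class and 10762 and 10669 UMIs in the second. Cells with neither gene held Trdc in 23.8% and 33.3% and Trac in 57.1% and 61.9%, and Sox13 was at 0 in them.

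**Figure D3:**
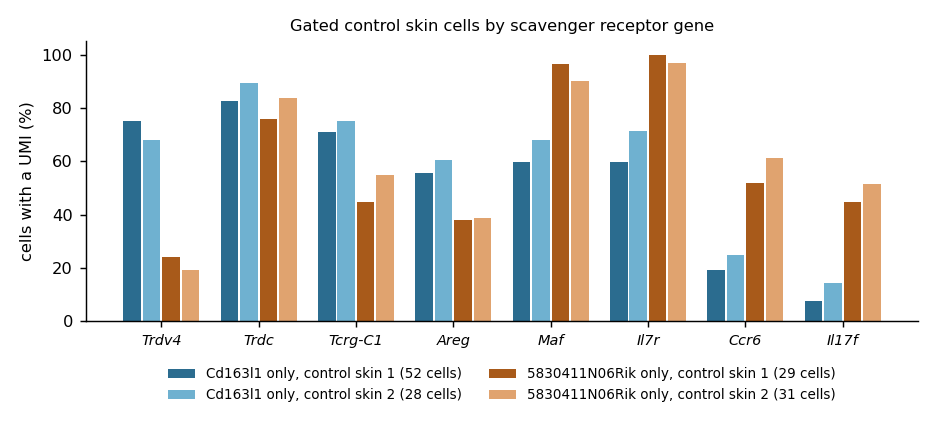
Share of control skin gated cells with a UMI of each gene (percent), for cells with Cd163l1 only and cells with 5830411N06Rik only, 1 bar per library. Trdv4 was detected more often in the Cd163l1 cells of both libraries, and Il17f, Ccr6 and Il7r more often in the 5830411N06Rik cells of both.

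The gated cells of control skin were next compared with 3 other lymphocyte groups of the same libraries, each defined by its own genes. A cell that met the IL-17 definition was kept out of these groups, also where it met the DETC or T cell definition. Of the DETC genes, Fcer1g was held by 59 and 27 gated cells of control skin, Nkg7 by 51 and 27 and Il2rb by 109 and 86. The DETC contrast therefore does not set apart 2 exclusive populations. DETC (579 and 657 cells) held at least 3 CD3 UMIs with Il2rb or Nkg7 and Fcer1g, ILC2 (172 and 153 cells) held Rora with Gata3 or Il1rl1 and no CD3, and CD4 or CD8 T cells (152 and 69 cells) held CD3 with Cd4 or Cd8 genes. UMIs were summed per library and group, and edgeR's quasi-likelihood test with a library term and Benjamini-Hochberg adjustment was run over 9489 genes, after the genes of any definition were removed. A summed level does not tell more cells with a transcript from more transcripts per cell. Cells of 2 control skins and 2 tumors were loaded. The library term takes up the overall difference between the 2 control skins. The p-values of this fit rest on how the differences between groups vary from 1 of these skins to the other.

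**Figure D4:**
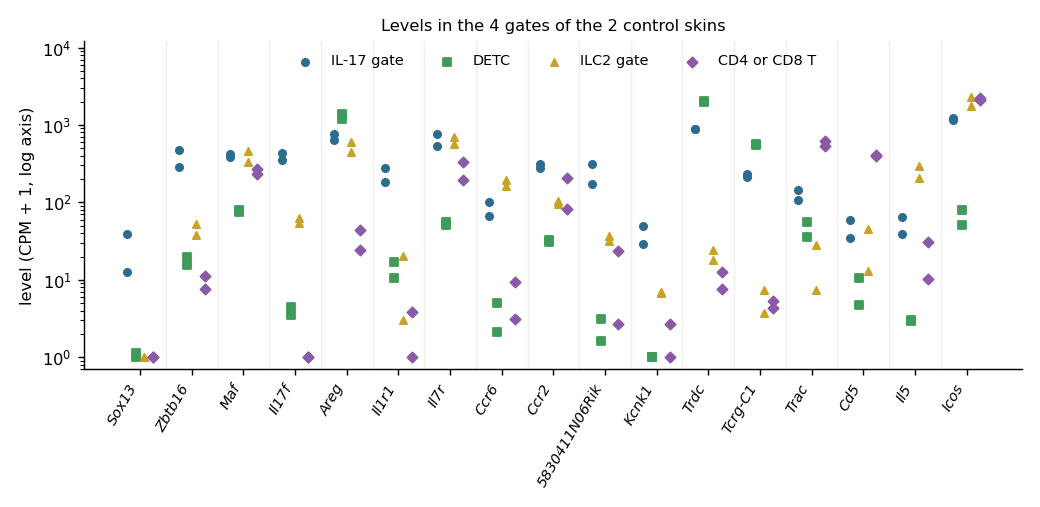
Levels (CPM + 1, log axis) of named genes in the 4 lymphocyte groups of control skin, 1 point per library. The IL-17 gate stands above the other 3 groups in both libraries for Sox13, Zbtb16, Il17f, Il1r1, 5830411N06Rik and Kcnk1, and below DETC for Trdc, Tcrg-C1 and Areg.

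Against DETC, the other γδ T cell of skin, 853 genes were higher in the gated cells and 1046 were lower, which is 8.99% and 11.0% of the genes tested. Several lineage regulators of IL-17 cells were higher. Sox13 stood at 11.7 and 37.6 CPM against 0 and 0.127 CPM (log2 fold change 7.70 ± 0.88 SE, adjusted p = 0.0022), a call that DESeq2 did not make (adjusted p = 0.298). Zbtb16 was higher by 4.37 ± 0.21, Maf by 2.25 ± 0.18 and Nfkbiz, a transcriptional cofactor for IL-17 target genes, by 1.77 ± 0.14 on the log2 scale. In all, 5 of 11 tested regulators were higher and 1 was lower, with a median log2 fold change of 0.58 against -0.05 over all genes. The lower one was Ahr, the dioxin receptor (log2 fold change -1.22 ± 0.22), at 172 and 109 CPM against 321 and 275 CPM.

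Of the effector genes, Il17f had the largest difference from DETC, with 433 and 352 CPM against 3.45 and 2.53 CPM (log2 fold change 6.89 ± 0.24, adjusted p = 5.5e-05). Ltb, which encodes lymphotoxin β, was higher by 2.26 ± 0.24 and Ifng by 2.04 ± 0.49, the latter from 57.7 and 22.2 CPM in the gated cells, held by 13 cells of control skin 1 and by 1 cell of control skin 2. Areg was lower, at 753 and 632 CPM against 1394 and 1208 CPM (log2 fold change -1.05 ± 0.14), as was Vegfa (-1.10 ± 0.32). In total 3 of 10 tested effectors were higher and 2 lower. Il22 was close to absent at this depth, with 1 and 3 UMIs over all gated cells of control skin.

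Cytokine sensing genes differed in 1 direction. Of 11 tested genes for IL-23, IL-1 and IL-18 sensing, 6 were higher than in DETC and 0 were lower, with a median log2 fold change of 0.90. Il1r1, the signalling receptor for IL-1, stood at 180 and 277 CPM against 9.61 and 16.1 CPM (log2 fold change 4.04 ± 0.41, adjusted p = 0.00048). Both chains of the IL-18 receptor were higher, Il18r1 by 3.06 ± 0.24 and Il18rap by 2.11 ± 0.19, as was Jak2, the kinase bound to the IL-23 receptor, by 1.30 ± 0.16. Among common γ chain cytokine receptors 4 of 7 were higher and 0 lower, led by Il7r at 534 and 754 CPM against 54.4 and 50.2 CPM (log2 fold change 3.5 ± 0.28). The high-affinity IL-2 receptor chain Il2ra was higher by 2.77 ± 0.48.

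Of 19 homing and adhesion genes, 10 were higher and 1 lower than in DETC. The αβ T cell list also moved, with 4 of 9 genes higher (Trac, Cd28, Lef1 and Cd40lg) and 0 lower, and 18 and 15 gated cells held Trac without Trdc. Among gated cells with a Trdc UMI, 17 of the 95 named or listed results against DETC lost their call, among them Trac, Cd28, Cd40lg and Ccr7. Ccr6, the receptor for CCL20, stood at 66.6 and 99.2 CPM against 4.05 and 1.14 CPM (log2 fold change 4.89 ± 0.48, adjusted p = 0.00044). Ccr2 was higher by 3.11 ± 0.27, and S1pr1, the receptor that lets lymphocytes leave tissue, by 4.34 ± 0.37, at 27.5 and 23.1 CPM against 0.751 and 1.39 CPM. Rgs1, a gene of tissue-resident lymphocytes, was the lower member, at 2256 and 1646 CPM against 4000 and 3277 CPM (log2 fold change -1.04 ± 0.13).

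Markers reported for IL-17 type γδ T cells went with the gated cells, with 8 of 12 tested genes higher than in DETC and 0 lower. The list was assembled with earlier results of these libraries known, so its count is not independent evidence. 5830411N06Rik stood at 173 and 313 CPM against 2.10 and 0.634 CPM (log2 fold change 7.35 ± 0.65). Kcnk1, a potassium channel gene, stood at 28.2 and 48.2 CPM and was at 0 in DETC, which makes it at least 185-fold higher when the floor of 3 counts is taken over the group. Ltb4r1, the leukotriene B4 receptor, was higher by 3.72 ± 0.30 and Aqp3, a glycerol channel, by 3.34 ± 0.39. The costimulatory receptor Icos stood at 1152 and 1211 CPM against 77.9 and 49.4 CPM (log2 fold change 4.11 ± 0.20), and the inhibitory receptor Pdcd1 at 120 and 114 CPM against 1.95 and 1.65 CPM (5.88 ± 0.40). Il5, better known from ILC2, was likewise higher than in DETC, at 37.8 and 63.6 CPM against 1.95 and 2.03 CPM (log2 fold change 4.48 ± 0.47). It was held by only 8 and 6 gated cells of control skin 1 and 2.

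The receptor and adaptor list was mixed against DETC, with 3 of 14 genes higher and 4 lower. Trdc stood at 891 and 876 CPM against 2048 and 1967 CPM (log2 fold change -1.32 ± 0.13, adjusted p = 0.00052) and Tcrg-C1 at 229 and 212 CPM against 561 and 550 CPM (-1.47 ± 0.16). The Tcrg-C genes are near-identical copies, so how reads were divided among them is uncertain. Of 15 tested DETC and cytotoxic genes, 6 were lower and 1 was higher, in a group that had itself been chosen by Il2rb, Nkg7 and Fcer1g. Prf1, which encodes perforin, had a log2 fold change of -1.97 ± 0.18 and Cd7 one of -1.80 ± 0.12. Trac was higher by 1.39 ± 0.26 with all gated cells and not called among gated cells with a Trdc UMI (0.58, adjusted p = 0.209), and Ccl5, the higher member of the cytotoxic list (0.86 ± 0.25), was at 0.0071 in that subset (adjusted p = 0.998). Macrophage genes moved with the contrast: 3 of 6 were lower than in DETC, among them C1qc at 2.75 and 9.64 CPM against 15.2 and 26.1 CPM. The 1 tested Langerhans cell marker was lower too (log2 fold change -1.62). The part of these genes in the other calls was not tested.

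By size of change among called genes with a mean of at least 50 CPM in the higher group, outside the gene classes left out, Ppp1r14c, a phosphatase inhibitor gene, led the higher genes at 174 and 192 CPM against 0.150 and 0.634 CPM (log2 fold change 8.56 ± 0.47). Pde5a, the phosphodiesterase that breaks down cyclic GMP, followed at 63.2 and 80 CPM against 0.450 and 0.253 CPM (7.39 ± 0.41). Actn2, Adam12, Fstl4 and Cpm were higher by 6.11, 6.09, 5.33 and 5.20. Wnt5b led the lower genes, at 11.7 and 26.0 CPM against 106 and 149 CPM (log2 fold change -2.95 ± 0.23), followed by Col12a1 (-2.81), St6galnac5 (-2.79) and Bend7 (-2.58). Fam174b, Samd13, Ncald and Hdac9 had log2 fold changes between -2.31 and -2.23.

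Against ILC2, which share Rora and the tissue but no T cell receptor, 525 genes were higher in the gated cells and 398 were lower, 5.53% and 4.19% of the genes tested. Of 14 T cell receptor genes and adaptors 9 were higher and 0 lower, with a median log2 fold change of 1.62 against -0.02 over all genes, a direction set by the groups themselves, since the gated cells had to hold CD3 and ILC2 had to lack it. Trdc stood at 23.5 and 17.1 CPM in ILC2 (log2 fold change 5.45 ± 0.18, adjusted p = 1e-05), and Cd247, the CD3 ζ chain, was higher by 3.80 ± 0.30. The IL-17 lists were mixed against ILC2. Of 11 regulators 3 were higher and 3 lower (median -0.36), the lower ones being Nfkbiz, Id2 and Prdm1, of 11 sensing genes 1 was higher and 3 were lower (median -0.13), and of 10 effectors 3 were higher and 1 was lower (median 0.67). Of the 12 reported markers 5 were higher and 1 was lower than in ILC2 (median 0.98). Aqp3 held 72 and 132 UMIs in ILC2 and 18 and 33 in the gated cells, a direction that turned with the stricter ILC2 group described below. Il17f stood at 53.0 and 62.6 CPM in ILC2 (log2 fold change 2.75 ± 0.19), Zbtb16 at 36.9 and 51.9 CPM (3.09 ± 0.21) and Il1r1 at 2.01 and 19.6 CPM (4.49 ± 0.48). Sox13 was at 0 in ILC2 and at least 25.2-fold higher in the gated cells, again without a call by DESeq2 (adjusted p = 0.537). Maf was at 383 and 417 CPM in the gated cells and 463 and 329 CPM in ILC2, and Il7r at 534 and 754 CPM and 690 and 562 CPM, so the ranges of the groups overlapped for both genes.

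Type 2 genes were lower in the gated cells than in ILC2, a group chosen by Gata3 and Il1rl1, 5 of 8 tested with 0 higher and a median log2 fold change of -1.66. Il5, which recruits eosinophils, stood at 37.8 and 63.6 CPM against 291 and 206 CPM (log2 fold change -2.35 ± 0.36, adjusted p = 0.0057), and Il13 at 39.1 and 45.3 CPM against 150 and 108 CPM (-1.61 ± 0.32). Calca, which encodes the peptide CGRP, was lower as well (-1.81 ± 0.28), and so was the IL-9 receptor Il9r (-3.06 ± 0.43). Jak2 and Il18rap, both higher than in DETC, were lower than in ILC2 (-1.58 ± 0.16 and -1.91 ± 0.19). The homing list did not follow one direction: Ccr2 was higher by 1.55 ± 0.26, Ccr8 was lower (-1.64 ± 0.17), and Ccr6 had a log2 fold change of -1.09 ± 0.38 that was not called (adjusted p = 0.12). By the same size rule, Fstl4 (6.88 ± 0.58), Slc4a4 (6.52 ± 0.50), Olfm3 (6.21 ± 0.54) and Fermt2 (5.66 ± 0.22) were most different in the higher direction, and Mest, an imprinted gene, was higher by 5.63 ± 0.29. All of these but Fstl4 stood at higher levels still in DETC, Mest for example at 530 and 558 CPM there and 144 and 149 CPM in the gated cells.

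The ILC2 group carried keratinocyte RNA. All 8 genes most reduced in the gated cells by the size rule are genes of keratinocytes or skin appendages at 0 in the gated cells, led by Krt17 at 437 and 824 CPM in ILC2, with Defb6, Ccl27a, Krt15, Plet1, Ly6g6c, Serpinb5 and Fxyd3. In the ILC2 group 5 and 12 cells held more than 5 keratin UMIs, and 13 and 17 held a UMI of an IL-17 marker gene. With those cells left out, an alternative chosen after seeing the data, 591 genes were higher and 461 lower, Krt17 was no longer called (adjusted p = 0.0665), and Il17f (3.22), Il5 (-2.58) and Il13 (-1.79) kept their calls. The summed keratinocyte genes of the gated cells were at 7.55 and 7.71 CPM. The 1 tested Langerhans cell marker was also lower than in ILC2 (log2 fold change -2.77).

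Against CD4 or CD8 T cells, the αβ T cells of skin, 788 genes were higher in the gated cells and 440 were lower, 8.30% and 4.64% of the genes tested. Il17f was at 0 in the T cells of both libraries and at least 261-fold higher in the gated cells. Areg stood at 42.4 and 23.3 CPM in T cells (log2 fold change 4.33 ± 0.19, adjusted p = 1.8e-05), Il1r1 at 2.87 and 0 CPM (6.65 ± 0.67) and Ccr6 at 2.15 and 8.33 CPM (4.31 ± 0.65). Of 11 regulators 5 were higher and 1 was lower, among them Zbtb16 by 5.29 ± 0.28, Ahr by 0.97 ± 0.26 and Maf by 0.69 ± 0.18, with Sox13 at 0 in T cells and at least 16.4-fold higher, while Prdm1 was lower (-1.56 ± 0.32). Of the 12 reported markers 7 were higher and 0 lower, including Tmem176b (5.38 ± 0.35) and Ramp1, a CGRP receptor subunit (3.70 ± 0.38). Tox, which DETC and ILC2 also expressed, was higher than in T cells by 2.41 ± 0.21. Of 16 costimulatory and inhibitory genes, 2 were higher and 7 lower than in T cells, 1 and 6 against ILC2, and 7 and 3 against DETC.

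αβ T cell genes were lower in the gated cells than in a group chosen by Cd4 or Cd8 genes, which bears on their direction, 7 of 9 tested with 0 higher and a median log2 fold change of -1.82 against 0.01 over all genes. Trac stood at 145 and 108 CPM against 619 and 531 CPM (log2 fold change -2.20 ± 0.26, adjusted p = 0.0013). Log2 fold changes were -3.2 ± 0.35 for Cd5, -2.92 ± 0.33 for Cd6 and -3.17 ± 0.23 for the costimulatory receptor Cd28. Cxcr3 (-3.97 ± 0.36), Ccl5 (-3.61 ± 0.25), Gzmb (-3.71 ± 0.72) and Tbx21, the T-bet gene (-3.16 ± 0.45), were also lower. The lists were mixed: of 15 DETC and cytotoxic genes 4 were higher, among them Prf1 (1.97 ± 0.25), and 4 lower, and of 14 receptor and adaptor genes 5 were higher, led by Trdc (6.48 ± 0.22), and 6 lower. Gzmb was uneven between the control libraries, at 97.5 and 0.964 CPM in the gated cells. Of 4 antigen-presenting genes 2 were higher than in T cells and 0 lower, with a median log2 fold change of 1.80. By the size rule Gimap4 (-4.50), Efna5 (-4.40), Ly6c2 (-4.29), Ifitm1 (-3.82) and Gpr174 (-3.66) were lowest beside those named. Pde5a and Npnt were at 0 in T cells, at least 47.5-fold and 34.3-fold higher in the gated cells, and Col27a1 (7.02), Cdh10 (6.29), Clnk (6.25) and Edil3 (6.06) followed. Other groups held more of some of these genes: Col27a1 stood at 257 and 281 CPM and Clnk at 154 and 167 CPM in DETC, against 55.6 and 100.2 CPM and 89.3 and 69.4 CPM in the gated cells, and Edil3 at 236 and 285 CPM in ILC2, against 48.8 and 219 CPM.

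Skin tumors were compared with control skin within the gate, on 19 and 9 cells against 110 and 88. The summed UMIs behind the tumor levels were 141486 and 75515 against 1456260 and 1037874, which puts 3 counts at 21.2 and 39.7 CPM in the tumors and 2.06 and 2.89 CPM in control skin. Since most tumor cells lacked Trdc, a difference in level cannot be told apart from a difference in which cells met the gate. edgeR's quasi-likelihood test called 76 genes higher and 98 lower in the tumors, 1.21% and 1.56% of 6273 genes tested. Without skin tumor 2, where 1 cell held 93.4% of the antigen-presenting and 1 cell 98.8% of the neutrophil marker UMIs of the gate, 152 and 202 genes were called. Without control skin 2 the counts were 45 and 69, and without control skin 1 they were 66 and 55. Of 44 called genes in a list or named by size that could be tested in all 4 fits that left out a library, 20 were called in each; in these fits a lone sample was assumed to vary like the other group.

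Il17f, Areg, Trdc and Tcrg-C1 were lower in the tumor gated cells and were called in all 4 of those fits. Il17f stood at 433 and 352 CPM in control skin and at 7.07 and 0 CPM in the tumors (log2 fold change -6.32 ± 0.63, adjusted p = 0.011). Areg fell from 753 and 632 CPM to 56.5 and 66.2 CPM (log2 fold change -3.48 ± 0.36). Trdc stood at 77.7 and 225 CPM in the tumors (-2.64 ± 0.43) and Tcrg-C1 at 49.5 and 13.2 CPM (-2.56 ± 0.46), both below either control library. Tcrg-C2, another γ chain constant gene, was at 34.3 and 42.4 CPM in control skin and 49.5 and 26.5 CPM in the tumors, and the receptor and adaptor list had 1 of 14 genes higher and 2 lower. The epithelial adhesion receptor Itgae (-2.37 ± 0.35), Rgs1 (-2.62 ± 0.37), the lectin gene Lgals3 (-2.5 ± 0.37), Nkg7 (-3.22 ± 0.44) and Cd7 (-5.87 ± 0.71) were lower and likewise called in all 4. Cd7 held 0 and 1 UMIs in the tumors, and its log2 fold change ran from -11.0 to -4.60 over those fits. In the DETC and cytotoxic list 5 of 13 tested genes were lower and 0 higher, with a median log2 fold change of -2.57, or -2.40 with genes at 0 set to their bound. Il5 and Il13 were at 0 in both tumors and were not called (adjusted p = 0.11 and 0.091).

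Regulators of the lineage did not show a common direction, with Nfkbiz higher and Id2 lower among 9 tested, and both lost their call in at least 1 fit without a library. Maf stood at 806 and 543 CPM in the tumors (log2 fold change 0.81 ± 0.31, adjusted p = 0.23) and Il1r1, of the sensing list, at 622 and 185 CPM (0.95 ± 0.50, adjusted p = 0.38). Zbtb16 at 410 and 397 CPM, Il7r at 785 and 596 CPM and 5830411N06Rik at 431 and 132 CPM overlapped the control range. Pde5a and Ppp1r14c, named above by size against DETC, were at 56.5 and 53.0 CPM and at 120 and 79.4 CPM in the tumors. Ahr stood at 21.2 and 39.7 CPM (-2.29 ± 0.53, adjusted p = 0.066).

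Of 17 tested interferon response genes 6 were higher in the tumor gated cells and 0 were lower, with a median log2 fold change of 2.16 against -0.02 over all genes. Ifi27l2a stood at 82.4 and 45.3 CPM in control skin and 445 and 490 CPM in the tumors (log2 fold change 2.88 ± 0.35, adjusted p = 0.011), and it was called in all 4 fits without a library. Zbp1 (4.37 ± 0.52), Gbp7 (3.21 ± 0.50), Ifit1 (4.16 ± 0.72) and Irf1 (2.20 ± 0.33) were not, with adjusted p-values up to 0.118, 0.131, 0.0765 and 0.0808. Other tumor lymphocytes also held more of it: Ifi27l2a stood at 1853 and 1640 CPM in the CD4 or CD8 T cells of the tumors against 184 and 257 CPM in those of control skin, and at 429 and 330 CPM in the tumor cells that met the DETC definition against 42.5 and 69.6 CPM in control skin, differences that were not tested. Trdc was detected in 36.4% and 53.1% of those tumor cells, so the DETC name does not hold for many of them.

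Of 17 homing and adhesion genes 2 were higher and 3 lower in the tumors, with a median log2 fold change of 0.01. Klf2, a factor that drives tissue exit, stood at 39.1 and 75.2 CPM in control skin and 382 and 305 CPM in the tumors (log2 fold change 2.66 ± 0.38), and S1pr1 was higher by 2.32 ± 0.49. Of 10 αβ T cell genes 3 were higher and 0 lower: Cd4 by 3.19 ± 0.49, Lef1 by 3.69 ± 0.67 and Cd40lg by 1.90 ± 0.39. Cd5, of the receptor and adaptor list, was higher by 2.21 ± 0.38. Trac had a log2 fold change of 0.75 ± 0.30 (adjusted p = 0.25). Klf2, S1pr1, Cd4, Cd5, Lef1 and Cd40lg each lost their call in at least 1 fit without a library, with adjusted p-values up to 0.0813 for Klf2, 0.397 for S1pr1, 0.261 for Cd4, 0.09 for Cd5, 0.375 for Lef1 and 0.354 for Cd40lg. The heat shock gene Hspa1a stood at 704 and 336 CPM against 5753 and 2053 CPM (2.97 ± 0.57) and Hsp90aa1 was higher by 2.83 ± 0.43, both without a call in 1 of the 4 fits (adjusted p up to 0.0741 and 0.0791), with 3 of 15 immediate early and dissociation genes higher and 0 lower. Reads of Hspa1a and its near-identical copy Hspa1b could not be told apart with certainty. Hspa1a was also at 2571 and 1617 CPM in the tumor T cells and 233 and 215 CPM in those of control skin, and the part of tissue handling in the calls was not tested.

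Applying the size rule to this contrast was chosen after its values were seen. Fermt2, an integrin activator, stood at 425 and 310 CPM in control skin and at 0 in both tumors, at least 26.6-fold lower. Carmil1, Ctnnd2, Palld, Kcnma1, Tjp1, Rcc1l and Slc24a3 were also at 0 in both tumors, at least 20.4, 17.2, 17.2, 16.1, 12.6, 12.2 and 11.8-fold lower. These genes were not particular to the IL-17 gate: Fermt2 stood at 1219 and 1127 CPM, Ctnnd2 at 779 and 793 CPM and Kcnma1 at 808 and 1011 CPM in DETC of control skin, and Palld at 801 and 657 CPM in ILC2. Dlg2, a scaffold protein gene, led the higher genes at 84.8 and 238 CPM in the tumors against 2.75 and 0.964 CPM (log2 fold change 6.12 ± 0.72), and stood at 68.9 and 128 CPM in the CD4 or CD8 T cells of the tumors against 2.15 and 0 CPM in those of control skin. Dok6 (5.09), Slamf6 (4.34) and Gimap4 (4.31) were higher as well. Dok6 and Slamf6 had no value in the fits without a library. Slamf6 stood at 66.5 and 47.7 CPM in the T cells of the tumors and 25.1 and 16.7 CPM in those of control skin. Gimap4 was at 308 and 211 CPM in the CD4 or CD8 T cells of the tumors and 165 and 192 CPM in those of control skin. In the gated cells Gimap4 lost its call in 1 of 4 fits without a library, with log2 fold changes from 3.63 to 6.20. Gzmc was at 1022 and 83.8 CPM in control skin and 0 in the tumors, and the difference was not called (adjusted p = 0.11).

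**Figure D5:**
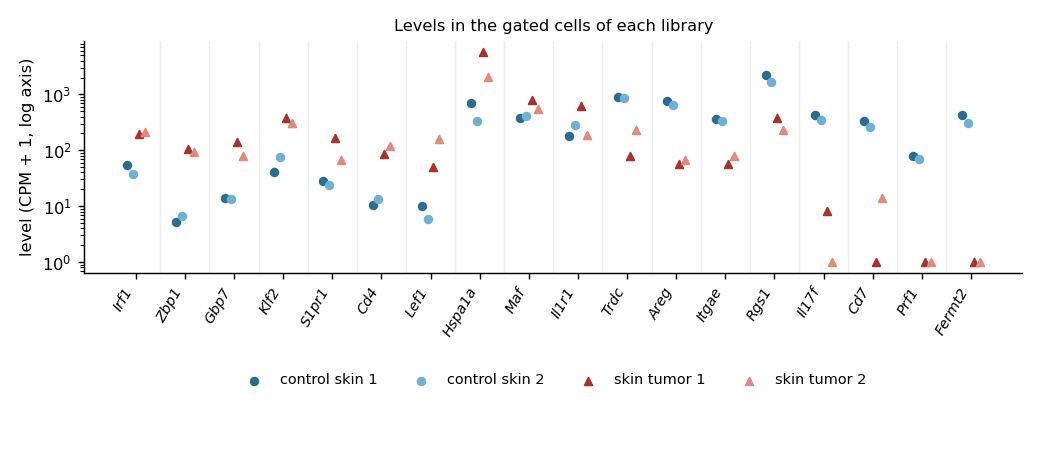
Levels (CPM + 1, log axis) of named genes in the gated cells of each library, 1 point per library. Both tumors lie above both control skins from Irf1 to Hspa1a on the left, the groups overlap for Il1r1, and both tumors lie below both control skins from Trdc to Fermt2 on the right.

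Markers of other cells rested on few gated cells for some cell types and were spread over many for others. Cd207, the Langerhans cell gene that the definition caps, was held by 31 of 110 and 20 of 88 gated cells of control skin and by 0 in the tumors, and the 3 richest cells held 18.4% and 29.3% of the Langerhans marker UMIs. With no Csf1r or Cd207 UMI allowed in any group, 871 genes were higher and 1095 lower than in DETC, 447 and 374 than in ILC2, and 773 and 401 than in T cells. In control skin 1 the summed mast cell genes stood at 1283 CPM, led by Mcpt4, and 3 cells held 93.9% of those UMIs, while in control skin 2 they stood at 28.9 CPM. The 4 antigen-presenting genes summed to 2640, 715, 318 and 5615 CPM, led by Cd74, and the 6 macrophage genes, led by Lyz2, to 188, 237, 141 and 2185 CPM in the order control skin 1, control skin 2, skin tumor 1 and skin tumor 2. In skin tumor 2 a single cell held 93.3% of the macrophage UMIs. Of the 3 natural killer cell markers Klra8 was at 0 in all 4 libraries, and both B cell markers were at 0 in the tumors. Doublets were not removed. Without the 7, 2, 0 and 1 gated cells with high Cd74 or mast cell genes, an alternative chosen after seeing the data, 114 genes were higher and 132 lower in the tumors, and H2-Aa, higher than in T cells by 1.88 with all cells, was at -0.14.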

How the data were processed

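Single-cell 3′ RNA-seq counts (UMIs per gene and barcode) of 4 libraries were used as deposited by the authors, unnormalized, with 31053 genes and 0 columns left without a sample. Per the labels the authors used Cell Ranger 7.1.0 and mm10 (the submitters' processing notes), while the file header names version 7.0.1. How intronic reads were handled is not given in the sources used here. Of the gene identifiers, 31011 were found in GENCODE for GRCm38.

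Cells needed at least 1000 UMIs and at most 15% mitochondrial UMIs. Gates were applied to raw counts, and UMIs were summed per library and gate. The sums were tested with edgeR 4.0.16 (quasi-likelihood, TMM, filterByExpr, limma 3.58.1) in R 4.3.3, with Benjamini-Hochberg adjustment over all genes tested and a threshold of 0.05. The control skin fit had a term for the library, 8 sums and 3 residual degrees of freedom, and the tumor fit 4 sums and 2. The scripts were tested on simulated data. DESeq2 1.42.0, other filters, other gate thresholds, thinning to 1000 UMIs, a replicate block and leaving out each library were alternatives. Folds against groups at 0 use a floor of 3 counts over the group.

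Named genes were the gate genes, genes of the lists, and in each control skin contrast the 8 genes with the largest change in each direction among those with an adjusted p under 0.05, a mean of at least 50 CPM in the higher group and no overlap of libraries, leaving out gate, T cell receptor, immunoglobulin, mitochondrial, ribosomal protein and sex genes and unnamed gene models. The gated cells and lists were chosen with earlier results of these data known. Libraries shared 23 barcodes over all pairs, 1 of them among gated cells. Some genes and alleles are not reported here. Clopper-Pearson and Poisson intervals and floors cover counting error only.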

Additional observations from a re-analysis of the deposited data

How the results depend on the processing

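All directions below refer to gated cells. The counts of called genes changed most with depth and filtering. With each cell thinned to 1000 UMIs, where fewer genes were tested, 469 genes were higher and 595 lower than in DETC, 201 and 197 than in ILC2, and 286 and 195 than in T cells. With no filter on low counts 1735 were lower than in DETC, 847 higher and 894 lower than in ILC2, 699 lower than in T cells, and 222 higher and 371 lower in the tumors. DESeq2 called 688 and 767 against DETC, 477 and 354 against ILC2, 694 and 421 against T cells and 70 and 84 in the tumors, and under DESeq2 the median log2 tumor fold change of all genes was 0.25. Without the library term the control skin counts were 802 and 961, 511 and 433, and 746 and 382. With a replicate block on numbers that only name the tumor and control libraries, 145 genes were higher and 203 lower in the tumors. Leaving out 1 library gave 45 to 152 higher and 55 to 202 lower genes in the tumors. The mean share of gated cells in control skin was 2.24% with no Csf1r or Cd207 UMI allowed, 2.27% with a Trdc UMI required, 5.40% of CD3 cells and 1.46% after thinning. In the tumors it was 0.280% with a marker sum of at least 3, 0.372% with no Csf1r or Cd207, 0.102% with a Trdc UMI, 1.64% of CD3 cells and 0.278% after thinning, and the mean share with a Trdc UMI there was 36.7% with a marker sum of at least 3 and 20.3% with no Csf1r or Cd207. Single genes that turned were Aqp3 against ILC2 (0.87 with stricter comparison gates), H2-Aa against T cells (-0.14 without likely doublets), Tnfrsf4 against DETC (-2.13 when thinned), and in the tumors, without skin tumor 1, Il1r1 (-0.45, range -0.45 to 1.46). The cause was not tested. In control skin, leaving out a library left 1 sum per group and no test, and every called gene that was named or in a list kept its direction. The tumor contrast rested on 19 and 9 gated cells.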
